A study of Mus musculus with 18 samples.

Results

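The MAP kinase phosphatases are dual-specificity phosphatases that remove phosphate from both the threonine and the tyrosine of the activation loop of a MAP kinase and so switch the kinase off. The genes followed were Dusp1, Dusp2, Dusp4, Dusp5, Dusp6, Dusp7, Dusp8, Dusp10, Dusp14 and Dusp16, taken by gene symbol. All 10 were measured, by 11 features of 44397 on the array, and they are 10 of 22485 genes in all. Dusp16 had 2 features and each of the others had 1.

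RNA came from mouse bone marrow derived macrophages, grown from the marrow of mice aged 8 to 10 weeks for 7 days with 10 ng/ml of M-CSF, the growth factor that turns marrow progenitors into macrophages. Wild type (Nrf2+/+) cells had 3 groups of 3 arrays: 4 h of albumin without heme, LPS for 4 h, and 200 µM heme-albumin for 4 h followed by LPS for 4 h. Cells without Nrf2 (Nrf2-/-), the transcription factor of the antioxidant response, had 4 arrays with LPS and 5 with heme and then LPS, and no group without LPS. LPS, the bacterial cell wall component that activates macrophages through TLR4, was given at 10 ng/ml. By the protocol in the labels albumin could precede LPS, but none is named for the LPS groups, so it is unknown whether these cells received it. Every array set its sample (Cy5) against RNA of untreated cells (Cy3) of a genotype that the labels do not name. The design text calls the samples independent biological replicates and does not say whether they came from different mice.

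In macrophages LPS activates the MAP kinases ERK, JNK and p38, which raise the production of cytokines, and the phosphatase genes are among those that these kinases induce, so that the signal limits itself. The nuclear, inducible members are DUSP1, DUSP2, DUSP4 and DUSP5. DUSP6 and DUSP7 are cytoplasmic and act mainly on ERK, DUSP8, DUSP10 and DUSP16 act mainly on JNK and p38, and DUSP14 is a small member without the MAP kinase binding domain of the others. A ratio to the reference carries no level, so changes were tested between groups of one gene and no level was compared between genes. Ratios were set beside those of other genes in the search for similar genes, and they were averaged over cell type markers.

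Promoter sequences from RefSeq (GRCm38.p6) were matched for 9 of the 10 genes, Dusp4 having none. The 250 bases before the start are shown for Dusp1, Dusp2 and Dusp8 because these windows hold a cAMP response element (CRE) or an E-box in full, and because Dusp2 and Dusp8 moved in opposite directions with heme in the results that follow. The capitals mark matches to the CRE, the E-box and the core of the antioxidant response element (ARE), the element that NRF2 binds. The windows are chr17:26508473-26508722 on the minus strand for Dusp1, chr2:127335909-127336158 on the plus strand for Dusp2 and chr7:142095285-142095534 on the minus strand for Dusp8. The Dusp8 window lies inside the span of the gene, which reaches to 142095907, so its start is not the outer end of the gene. The windows of Dusp14 and Dusp16 also lie inside their genes, and that of Dusp7 overlaps its gene.
Dusp1: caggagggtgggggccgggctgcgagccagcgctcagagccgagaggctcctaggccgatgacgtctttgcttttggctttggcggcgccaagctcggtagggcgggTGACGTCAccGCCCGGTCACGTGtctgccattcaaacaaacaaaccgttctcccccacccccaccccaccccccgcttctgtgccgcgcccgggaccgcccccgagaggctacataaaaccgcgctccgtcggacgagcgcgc
Dusp2: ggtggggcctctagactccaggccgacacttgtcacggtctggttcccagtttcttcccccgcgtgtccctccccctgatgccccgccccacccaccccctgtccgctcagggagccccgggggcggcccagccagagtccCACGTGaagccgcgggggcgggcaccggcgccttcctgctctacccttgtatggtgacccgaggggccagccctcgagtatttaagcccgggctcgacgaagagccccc
Dusp8: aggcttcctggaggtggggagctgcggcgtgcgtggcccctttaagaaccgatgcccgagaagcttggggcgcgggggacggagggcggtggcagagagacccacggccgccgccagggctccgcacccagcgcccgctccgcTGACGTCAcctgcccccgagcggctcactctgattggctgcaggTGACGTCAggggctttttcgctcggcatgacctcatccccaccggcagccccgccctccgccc
Motifs were searched on both strands as these letters. The CRE was TGACGTCA, found in 1.55% of 32851 RefSeq promoters of the same length. The E-box was CACGTG (6.02%), the ARE core TGACNNNGC (10.2%), AP-1 TGANTCA (6.75%) and NF-kB GGGNNNNNCC (45.8%). The Dusp1 window held 1 CRE, from 143 to 136 bases before the start, and 1 E-box, from 126 to 121. An ARE core on the other strand of Dusp1, from 133 to 125 bases before the start, overlaps that E-box, and 2 overlapping NF-kB matches lie from 52 to 42. The Dusp2 window held 1 E-box, from 109 to 104 bases before the start, and 4 NF-kB matches in overlapping pairs. Dusp8 held 2 CREs, from 107 to 100 and from 63 to 56 bases before the start, and no NF-kB match. Of the windows not shown, Dusp5 held 1 ARE core and 2 overlapping NF-kB matches, Dusp6 and Dusp7 held 2 NF-kB matches each, Dusp10 and Dusp14 held 1 each, and Dusp16 held none of the 5 motifs. No AP-1 match lay in any of the 9 windows. A match is a description of the letters and says nothing of binding.

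Nfe2l2, the gene that encodes NRF2, was listed at exactly 0 on all 9 Nrf2-/- arrays, but also on 2 of the 3 albumin arrays. A 0 for this gene thus does not by itself tell the genotypes apart. Exact zeros made up 17.9% to 48.8% of an array, with the highest shares on the LPS-treated arrays lettered a in their titles (44.3% to 48.8%). The labels do not say whether such a 0 is a measured ratio of 1 or a value that was not obtained. It concerned Dusp5 on 10 arrays, Dusp14 on 7, Dusp8 on 3 and one of the features of Dusp16 on 3. Markers of other cell types could not show whether such cells were present, since ratios carry no level. The mean log2 ratio of 34 such markers ran from 0.04 to 0.15 on the albumin arrays and from 0.18 to 0.87 on the LPS-treated ones. That of 9 macrophage markers was -0.35 on the albumin arrays. It ran from 0.32 to 0.41 on the wild type LPS arrays and from -1.06 to -0.60 on the wild type heme and LPS arrays. In Nrf2-/- cells it ran from -0.02 to 0.51 with LPS and from -0.42 to 0.14 with heme and LPS. With heme in wild type 3 of the 9 were lower by limma and 0 higher, beside 6.35% and 8.34% of all genes. The changes of the 9 ran from -5.38 to 0.55, with a median of -0.34. The part of these differences in the results was not tested.

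**Figure D1:**
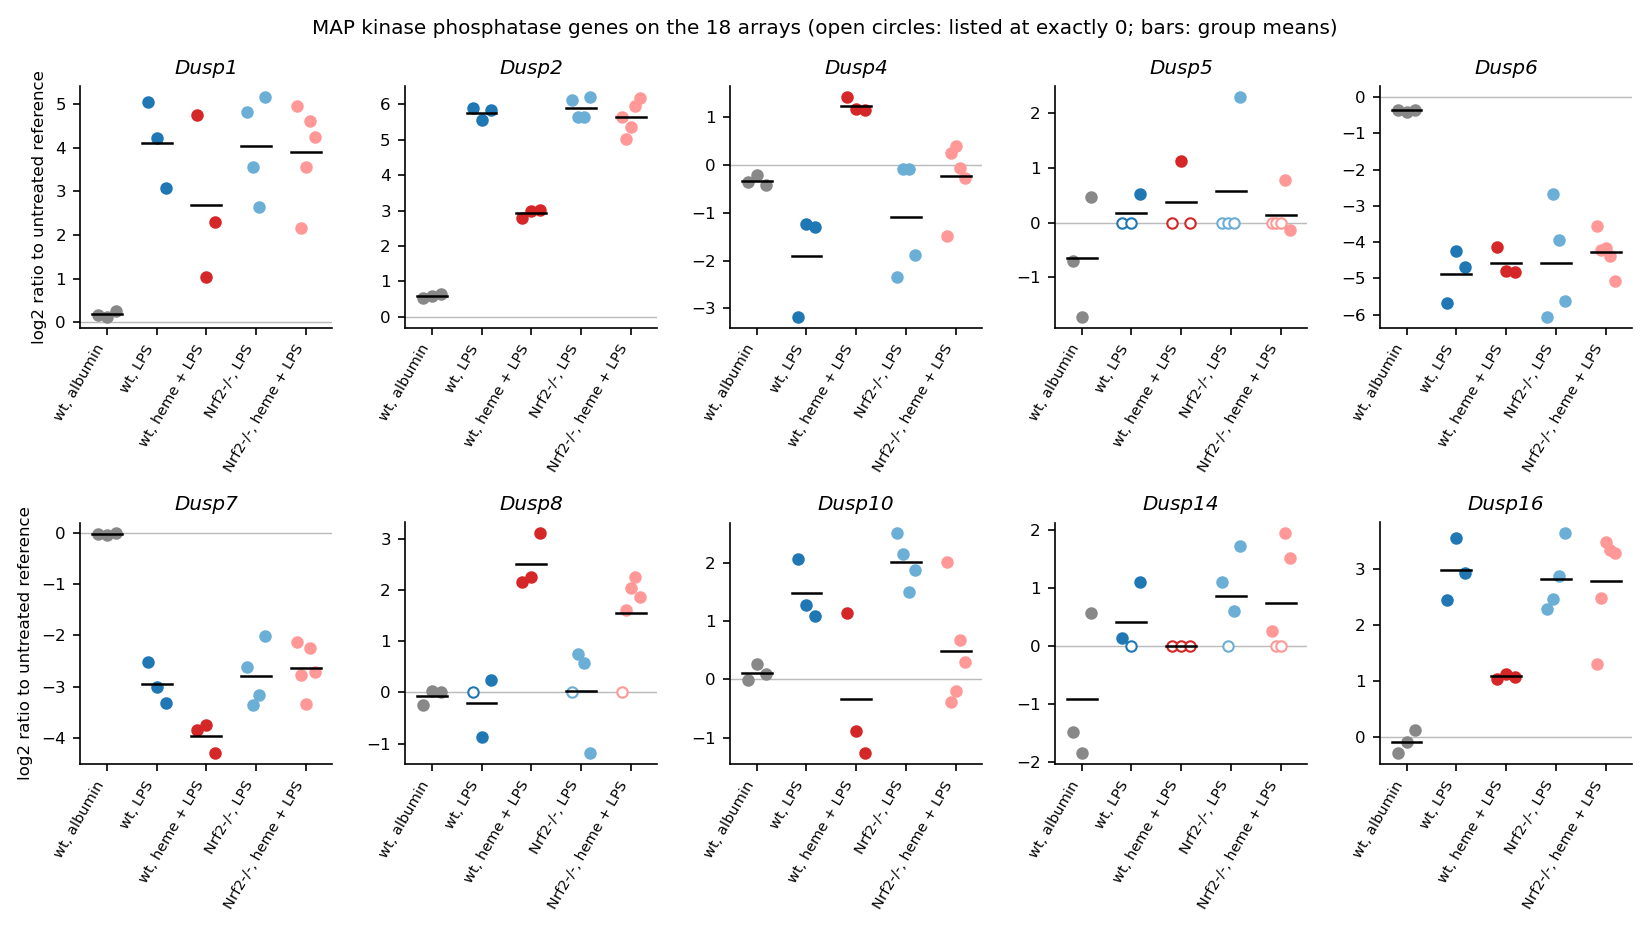
Log2 ratio of each gene to the untreated reference (vertical axis, a scale of its own in each panel) on the 18 arrays, by group; filled circles are arrays, open circles are arrays where the gene is listed at exactly 0, and bars are group means. Dusp2 lies between 2.78 and 3.02 on the 3 wild type heme and LPS arrays and at 5.03 or more on every other LPS-treated array.

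LPS moved the phosphatase genes in both directions. In wild type cells Dusp1, Dusp2 and Dusp16 rose against albumin, Dusp2 the most at 36.4-fold, while Dusp6 and Dusp7, the cytoplasmic ERK phosphatases, fell 22.6-fold and 7.61-fold. Of the 10 genes 3 rose and 2 fell, beside 12.3% of all genes that rose and 16.3% that fell (limma, Benjamini-Hochberg adjusted p under 0.05). The median change was 1.08 log2 units over the 10 genes and 0 over all genes.

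Dusp1, the phosphatase that restrains p38 and JNK after LPS, stood at log2 ratios of 0.15, 0.13 and 0.25 with albumin and of 5.05, 4.22 and 3.08 with LPS. Dusp2, an immune cell phosphatase of ERK and p38, stood at 0.54, 0.59 and 0.63 with albumin and at 5.91, 5.56 and 5.85 with LPS. For both genes every LPS array was above every albumin array, and the LPS arrays of Dusp1 were spread over about 2 log2 units where those of Dusp2 lay close together. The rise was 3.94 ± 0.93 (log2, SE, 3 against 3 arrays) for Dusp1 (limma adjusted p = 0.00492) and 5.19 ± 0.24 for Dusp2 (limma adjusted p = 8.14e-09). Dusp4, a nuclear phosphatase of ERK and JNK, went the other way in value, from -0.37, -0.21 and -0.42 with albumin to -3.17, -1.23 and -1.29 with LPS. These arrays did not overlap, but the difference of -1.56 ± 0.65 did not pass (limma adjusted p = 0.0916). Dusp5, a nuclear ERK phosphatase, was listed at 0 on 2 of the 3 LPS arrays, and its difference of 0.83 ± 0.61 did not pass either.

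Dusp6, which acts on ERK and is a standard marker of ERK signalling, stood at -0.35, -0.41 and -0.36 with albumin and at -5.67, -4.25 and -4.68 with LPS. Dusp7 stood at -0.02, -0.04 and -0.01 with albumin and at -2.52, -3.02 and -3.31 with LPS. Neither gene's groups overlapped. Dusp6 fell by 4.50 ± 0.69 log2 units (limma adjusted p = 0.000186) and Dusp7 by 2.93 ± 0.35 (limma adjusted p = 2.22e-05).

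Of Dusp8, Dusp10 and Dusp16, which act mainly on JNK and p38, and Dusp14, Dusp16 rose and the others did not pass. The mean of the features of Dusp16 stood at -0.29, -0.09 and 0.12 with albumin and at 2.46, 3.56 and 2.94 with LPS, a rise of 3.07 ± 0.49 (limma adjusted p = 0.000294). Dusp10 stood at -0.01, 0.26 and 0.08 with albumin and at 2.07, 1.27 and 1.08 with LPS, without overlap, but its difference of 1.36 ± 0.62 did not pass (limma adjusted p = 0.123). Dusp8 stood at -0.25, 0.02 and 0.00049 with albumin and at 0, -0.87 and 0.23 with LPS, so its groups overlapped. Dusp14 differed by 1.34 ± 0.66 (limma adjusted p = 0.154), which passed under 3 of 14 alternative settings, among them without albumin array c, at 2.09 (limma adjusted p = 0.0232).

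Heme before LPS also moved members in both directions. In wild type cells Dusp4 and Dusp8 rose against LPS alone, 8.78-fold and 6.57-fold, while Dusp2 and Dusp16 fell 7.14-fold and 3.74-fold. That is 2 of 10 genes higher and 2 of 10 lower, beside 8.34% of all genes that rose and 6.35% that fell. The median difference over the 10 genes was -0.71 log2 units, and over all genes it was 0. The same 3 wild type LPS arrays entered this comparison and the one with albumin, with opposite sign.

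Among the nuclear members Dusp2 fell and Dusp4 rose. The log2 ratios of Dusp2 were 2.78, 3.00 and 3.02 with heme and LPS, below all LPS arrays and above all albumin arrays. The fall against LPS was -2.84 ± 0.24 (limma adjusted p = 3.32e-06), and it shrank to -1.86 when the arrays were quantile normalized. Dusp4 rose to 1.42, 1.16 and 1.14, above every array of the other 4 groups, where all but 2 arrays lay below 0. Its change of 3.13 ± 0.65 passed (limma adjusted p = 0.00407), but not with only the 2 groups of the comparison in the fit (limma adjusted p = 0.0551). Dusp1 stood at 4.76, 1.04 and 2.29, a range that held both its LPS value of 3.08 and values far below, and its difference of -1.42 ± 0.93 did not pass (limma adjusted p = 0.432). The interval of that difference ran from -3.41 to 0.57. Dusp5 was listed at 0 on 2 of the 3 heme and LPS arrays.

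Dusp6 and Dusp7 stayed far below the reference. Dusp6 stood at -4.13, -4.79 and -4.82, overlapping the LPS arrays, and its difference was 0.29 ± 0.69. Dusp7 stood at -3.85, -3.75 and -4.30, below all 3 LPS arrays, with a difference of -1.01 ± 0.35 that did not pass (limma adjusted p = 0.0695) but did under 4 of 15 alternative settings.

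Dusp8, a phosphatase of JNK best known from brain and heart, was one of the 5 members that did not pass for LPS against albumin. With heme and LPS its log2 ratios were 2.16, 2.25 and 3.10, above every wild type array without heme, and its rise was 2.72 ± 0.57 (limma adjusted p = 0.00421). Dusp16 stood at 1.04, 1.13 and 1.08, between the albumin and the LPS arrays. It fell by 1.90 ± 0.49 (limma adjusted p = 0.0164), a call that was lost without LPS array b (-1.62, limma adjusted p = 0.0798). Its features differed in size but not in direction: feature 21387 read 3.36, 3.28 and 3.05 with LPS and 2.08, 1.91 and 2.16 with heme, and feature 38073 read 1.56, 3.84 and 2.83 with LPS and 0, 0.35 and 0 with heme. By feature 21387 alone the change was -1.18 ± 0.19 (limma adjusted p = 0.000505), and by feature 38073 alone it was -2.63 ± 0.86 and did not pass (limma adjusted p = 0.0557). With zeros treated as missing the change was -1.20 (limma adjusted p = 0.0309). Dusp10 stood at 1.13, -0.89 and -1.27, and its difference of -1.81 ± 0.62 did not pass (limma adjusted p = 0.0690). It passed under 6 of 15 alternative settings, among them without heme array a, the highest of the 3, at -2.55 (limma adjusted p = 0.00728). Dusp14 was listed at 0 on all 3 heme and LPS arrays.

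**Figure D2:**
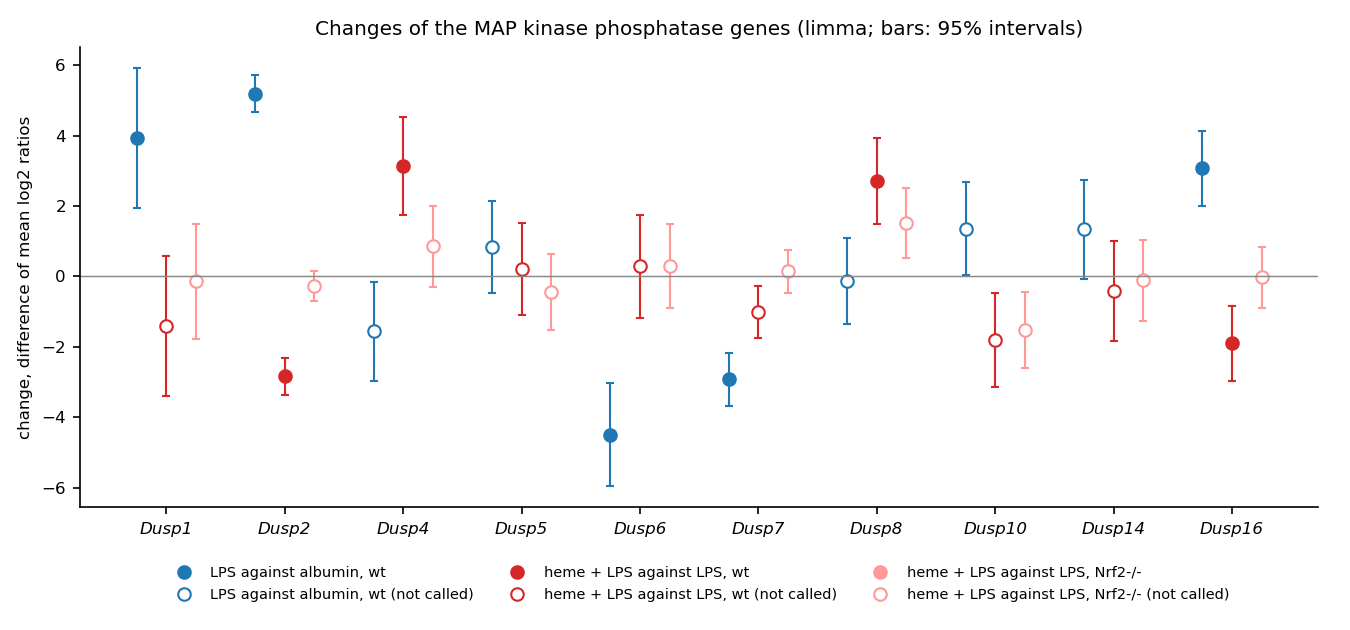
Change of each gene (difference of mean log2 ratios, vertical axis) for LPS against albumin in wild type, and for heme and LPS against LPS in wild type and in Nrf2-/- cells; filled points were called by limma, open points were not, and bars are 95% intervals. Dusp2 changed by -2.84 with heme in wild type and differed by -0.26 in Nrf2-/- cells, where no gene of the family is filled.

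Against albumin, heme and LPS together left 2 of 10 genes higher and 2 lower, beside 12.9% of all genes that rose and 14.4% that fell. Dusp2 was higher by 2.35 ± 0.24 (limma adjusted p = 9.02e-06) and Dusp8 by 2.58 ± 0.57 (limma adjusted p = 0.00343). Dusp6 was lower, at -4.21 ± 0.69, and so was Dusp7, at -3.94 ± 0.35. Dusp1 was above albumin on each of the 3 arrays, yet its difference of 2.52 ± 0.93 did not pass (limma adjusted p = 0.0581). It passed under 7 of 15 alternative settings, among them without heme array b (3.35, limma adjusted p = 0.0195). Dusp16 differed by 1.17 ± 0.49 and did not pass (limma adjusted p = 0.0984). It passed under 7 of 17 alternative settings, among them by its feature 21387 alone, at 1.71 ± 0.19 (limma adjusted p = 1.28e-05). Over the 17 settings the difference ran from 0.63 to 1.88 and the limma adjusted p from 1.28e-05 to 0.664. Feature 38073 read -0.87, -0.54 and -0.13 with albumin and 0, 0.35 and 0 with heme and LPS.

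In Nrf2-/- macrophages none of the 10 genes passed for heme and LPS against LPS by limma, while 4.1% of all genes rose and 2.67% fell. At an unadjusted p under 0.05 there were 2 of 10, Dusp8 and Dusp10, beside 17.3% of all genes. Dusp2 remained close to its LPS values. Its log2 ratios were 6.12, 5.65, 5.63 and 6.21 with LPS and 5.65, 5.03, 5.37, 5.96 and 6.19 with heme and LPS, so the groups overlapped. The difference was -0.26 ± 0.20, with an interval from -0.70 to 0.17, and it was 0.21 after quantile normalization.

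Dusp8 stood at 0, 0.75, 0.57 and -1.19 with LPS and at 0, 1.61, 2.04, 2.26 and 1.87 with heme and LPS in these cells. Its difference of 1.52 ± 0.47 did not pass (limma adjusted p = 0.0706), and it passed under 4 of 18 alternative settings, among them without heme array a, the one listed at 0 (1.91, limma adjusted p = 0.00825). Dusp10 stood at 2.50, 2.14, 1.50 and 1.88 with LPS and at 2.02, -0.39, -0.21, 0.68 and 0.30 with heme and LPS. Here too array a was the one that overlapped the LPS group. The difference of -1.52 ± 0.51 did not pass (limma adjusted p = 0.101), and it passed under 3 of 18 alternative settings, among them without array a of the heme group, at -1.91 (limma adjusted p = 0.0193). Dusp4 stood at -2.35, -0.08, -0.08 and -1.88 with LPS and at -1.50, 0.25, 0.39, -0.06 and -0.28 with heme, a difference of 0.86 ± 0.54 between overlapping groups. Dusp16 ran from 2.29 to 3.64 with LPS and from 1.31 to 3.50 with heme and LPS, the lowest value being that of array a. Dusp1 ran from 2.64 to 5.17 with LPS and from 2.17 to 4.97 with heme and LPS. Dusp6, Dusp7, Dusp5 and Dusp14 overlapped between these groups as well, with differences from -0.44 to 0.30.

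Whether the response to heme itself differed between genotypes was tested by the interaction, the heme effect in Nrf2-/- cells minus that in wild type cells. Dusp2 was the gene of the 10 that passed, at 2.57 ± 0.32 (limma adjusted p = 0.00113), beside 0.24% of all genes that passed in this direction and 0.707% in the other. Over 24 alternative settings its adjusted p ran from 0.000102 to 0.0206. The interaction of Dusp16 was 1.87 ± 0.64 (limma adjusted p = 0.305). It passed under 3 of 26 alternative settings. These were array weights (2.41), feature 21387 alone, at 1.31 ± 0.24 (limma adjusted p = 0.0162), and leaving out array a of the Nrf2-/- heme group, at 2.24 (limma adjusted p = 0.0338). By feature 38073 alone it did not pass. For Dusp4 the interaction was -2.28 ± 0.84 (limma adjusted p = 0.385), with an interval, not adjusted over genes, from -4.09 to -0.47. For Dusp8 it was -1.19 ± 0.74. Neither of these genes, which rose with heme in wild type, thus passed for a difference between genotypes. At an unadjusted p under 0.05 there were 4 of 10, Dusp2, Dusp4, Dusp7 and Dusp16, beside 7.91% of all genes. For Dusp10 the interaction was 0.29 ± 0.80, with an interval from -1.43 to 2.01.

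The genotypes were also set against each other within a treatment. Under LPS none of the 10 genes passed by limma, and none had an unadjusted p under 0.05, beside 2.48% of all genes. Of all genes 0% were higher and 0.00445% lower in Nrf2-/- cells. For Dusp2 the difference was 0.13, with an interval from -0.36 to 0.62, and for Dusp4 it was 0.80, with an interval from -0.51 to 2.11. Under heme and LPS 3 of the 10 were higher in Nrf2-/- cells and none was lower, beside 2.13% of all genes that were higher and 3.16% that were lower. Dusp2 was 6.52-fold higher (2.71 ± 0.22, limma adjusted p = 5.83e-06), and none of the 5 Nrf2-/- arrays overlapped the wild type ones. Dusp7 stood at -2.14, -2.78, -3.35, -2.25 and -2.72, all above the wild type arrays, and was higher by 1.32 ± 0.31 (limma adjusted p = 0.0220). Dusp16 stood at 1.31, 2.50, 3.50, 3.35 and 3.30, all above the wild type arrays, and was higher by 1.71 ± 0.44 (limma adjusted p = 0.0377). The calls of Dusp7 and Dusp16 were both lost with only the 2 groups in the fit (limma adjusted p of 0.113 and 0.231). Dusp7 also failed after quantile normalization (limma adjusted p = 0.240), without the LPS-treated arrays lettered a (1.25), and without wild type array c (1.15) or Nrf2-/- array d (1.22). Dusp16 passed under 10 of 19 alternative settings. It failed with the array letter as a replicate block (1.33, limma adjusted p = 0.0549). It also failed without any 1 of 6 of the 8 arrays, wild type a, b and c and Nrf2-/- c, d and e. Its feature 21387 alone passed at 1.02 ± 0.17 (limma adjusted p = 0.00186). Feature 38073 read 0, 2.20, 3.74, 3.29 and 3.32 on the Nrf2-/- arrays. On the wild type arrays feature 38073 read 0, 0.35 and 0, so its groups overlapped. Dusp4 was lower in value on all 5 Nrf2-/- arrays than on any wild type one, but the difference of -1.48 ± 0.58 did not pass (limma adjusted p = 0.205).

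**Figure D3:**
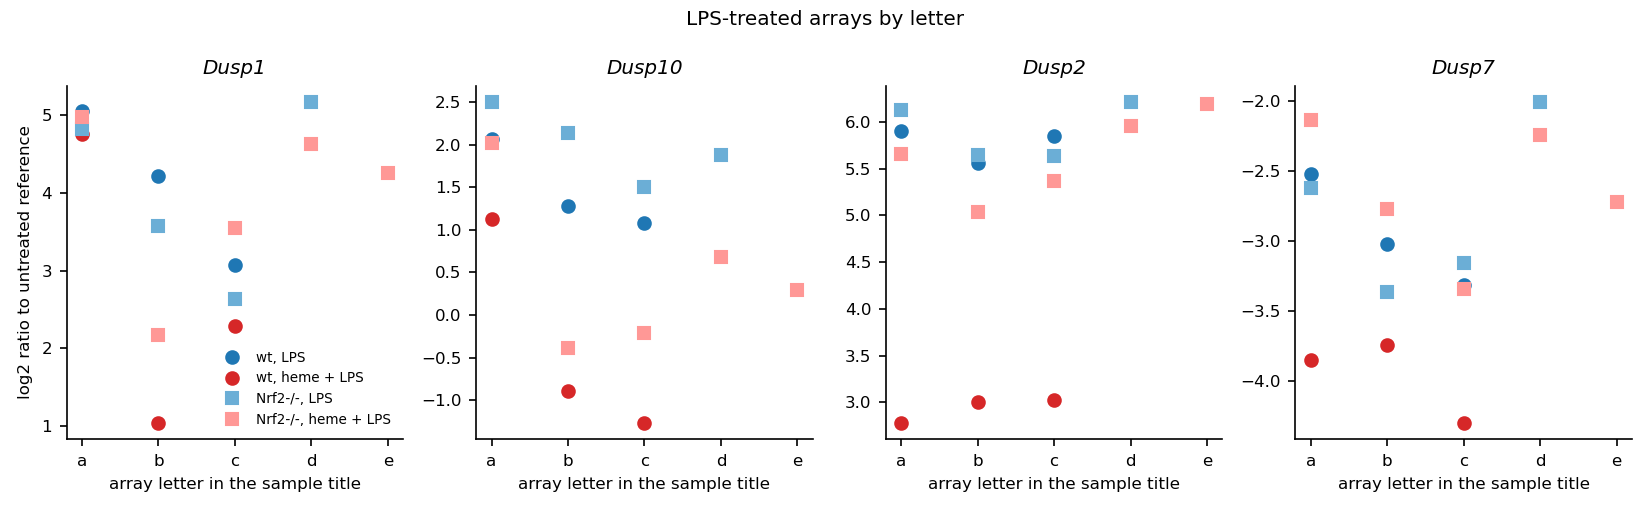
Log2 ratio to the untreated reference (vertical axis) of Dusp1, Dusp10, Dusp2 and Dusp7 on the LPS-treated arrays, by the letter in the array's title (horizontal axis); circles are wild type, squares Nrf2-/-, blue LPS and red heme and LPS. For Dusp1 the 4 arrays lettered a lie between 4.76 and 5.05 whatever the treatment, while for Dusp2 the wild type heme and LPS arrays are the lowest at every letter they share.

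Dusp1 and Dusp10 varied with the letters within groups. Dusp1 was at 5.05, 4.76, 4.82 and 4.97 on the 4 LPS-treated arrays lettered a, and its lowest values in the heme groups, 1.04 and 2.17, were both on arrays lettered b. In the groups with LPS alone its lowest values, 3.08 and 2.64, were on arrays lettered c. Its highest Nrf2-/- LPS value, 5.17, was on array d. For Dusp10 the heme array with the highest value was lettered a in each genotype, at 1.13 and 2.02. The labels do not say what the letters stand for. Without the LPS-treated arrays lettered a, Dusp10 was lower with heme and LPS than with LPS in both genotypes, at -2.25 in wild type (limma adjusted p = 0.00132) and -1.74 in Nrf2-/- cells (limma adjusted p = 0.00257). It was then also lower in wild type with heme and LPS than with albumin (-1.19, limma adjusted p = 0.0133) and higher in Nrf2-/- than in wild type cells under heme and LPS (1.17, limma adjusted p = 0.0370).

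Ordered by group mean, Dusp2 was highest in Nrf2-/- LPS (5.90 ± 0.31, SD), then wild type LPS (5.77 ± 0.19) and Nrf2-/- heme and LPS (5.64 ± 0.46), 3 neighbours whose arrays overlapped, and then wild type heme and LPS (2.94 ± 0.13) and albumin (0.59 ± 0.05), each apart from its neighbour. Dusp16 had the same order of separations, with overlapping means of 2.99, 2.82 and 2.79, then 1.08 and -0.09. Dusp4 had wild type heme and LPS alone at the top (1.24 ± 0.16), with all further neighbours overlapping. Dusp7 had albumin alone at the top (-0.02 ± 0.01) and wild type heme and LPS alone at the bottom (-3.97 ± 0.29). For Dusp6 all LPS-treated neighbours overlapped, and for Dusp5, Dusp8, Dusp10 and Dusp14 every neighbour did.

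For each gene whose group means spanned at least 2 log2 units, the 3 genes closest to it over the 18 arrays were found by the root mean square difference of their log2 ratios. Nearest to Dusp1 were Tnip3 (0.41), Isg15 (0.52) and Gbp2 (0.67), and nearest to Dusp2 were Tnfsf15 (0.63), Hdc (0.72) and Nos2 (0.73). Nos2, the inducible nitric oxide synthase, had group means of 5.46 with LPS and 1.71 with heme and LPS in wild type, and of 5.75 and 4.96 in Nrf2-/- cells. Dusp10 was closest to 3 genes of 2'-5'-oligoadenylate synthetases, Oas2 (0.43), Oas1a (0.46) and Oas1f (0.47). Dusp16 was closest to Rgs16 (0.44), Fcgr2b (0.55) and Upp1 (0.56), Dusp7 to Rab3il1 (0.49), Tbc1d2 (0.52) and Zfp273 (0.58), and Dusp4 to Pla2g6 (0.59), Tnfrsf21 (0.64) and Irs2 (0.64). For Dusp8 the nearest gene was 9430037G07Rik (0.64), about as far as the nearest gene of Dusp2. The difference was largest for Dusp6, whose nearest gene was Lyl1 (0.92).

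The other genes of the MAP kinase cascade were followed in lists, with 64 of 73 genes measured. Under LPS 14 of the 64 rose and 18 fell, with a median of 0.02, and under heme and LPS against LPS in wild type 11 rose and 5 fell, with a median of 0.21. The shares of all genes were 12.3% and 16.3% under LPS and 8.34% and 6.35% with heme in wild type. In Nrf2-/- cells heme raised 5 and lowered 1, beside 4.1% and 2.67% of all genes. None of the 64 passed the interaction by limma, with 9 at an unadjusted p under 0.05, beside 7.91% of all genes.

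Map3k8, the kinase TPL2 that links TLR4 to ERK, had group means of 0.22 ± 0.02 (SD) with albumin, 4.29 ± 0.20 with LPS and 2.22 ± 0.32 with heme and LPS in wild type, and of 4.49 ± 0.45 with LPS and 3.98 ± 0.52 with heme and LPS in Nrf2-/- cells. It rose by 4.07 ± 0.31 with LPS (limma adjusted p = 4.01e-07), fell by 2.07 ± 0.31 with heme in wild type (limma adjusted p = 0.000329) and was 1.76 ± 0.28 higher in Nrf2-/- than in wild type cells under heme and LPS (limma adjusted p = 0.00132). Of 13 MAP3 kinases LPS raised 3 and lowered 7, beside 12.3% and 16.3% of all genes, with Map3k12 at -2.99 and Map3k4 at -2.92. Heme in wild type raised 3 of the 13 and lowered 1, beside 8.34% and 6.35%, with Map3k14, the NF-kB inducing kinase, at 1.90. Map3k7, the kinase TAK1, was lower in Nrf2-/- cells under heme and LPS, at -0.79 ± 0.14 (limma adjusted p = 0.00304). Of 6 MAP2 kinases LPS raised Map2k4 (2.28) and Map2k1 (1.79) and lowered Map2k6 (-1.92), and heme moved none in wild type, with 2 at an unadjusted p under 0.05, beside 23.3% of all genes.

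The MAP kinases themselves are the substrates of the phosphatases. With heme and LPS against LPS in wild type, 5 of 12 MAP kinases rose and none fell, beside 8.34% and 6.35% of all genes. The median over the 12 was 0.54. The largest rises were those of Mapk14, which encodes p38 alpha (1.56 ± 0.26, limma adjusted p = 0.000907), Mapk7, which encodes ERK5 (1.38 ± 0.18), and Mapk8, which encodes JNK1 (1.19 ± 0.25). In Nrf2-/- cells 2 of the 12 rose and none fell, beside 4.1% and 2.67% of all genes. These were Mapk14, by 0.99 ± 0.22 (limma adjusted p = 0.0126), and Mapk7, by 0.89 ± 0.15. Under LPS Mapk6 rose (1.57) and Mapk7 and Nlk fell (-1.81 and -1.32).

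Of all genes LPS raised 12.3% and lowered 16.3%, and heme in wild type raised 8.34% and lowered 6.35%. Of 10 genes of the input to ERK, LPS raised 2 and lowered 4, with Rasgrp1 at 5.51 ± 1.03 and Rasgrp3 at -3.68 ± 0.68. Heme in wild type lowered Nras (-0.66) and raised Sos2 (0.33). Of 7 kinases activated by MAP kinases LPS raised Mapkapk2, the p38 effector MK2 (2.93 ± 0.23), and Rps6ka3 (1.99) and lowered Mknk2 (-2.43). Heme in wild type lowered Rps6ka3 (-1.78) and raised Mapkapk3 (0.67). Of 16 feedback inhibitors of Ras and ERK and other phosphatases of MAP kinases LPS raised 4 and lowered 3, with Spred1, an inhibitor of Ras to Raf signalling, at 1.97 and the phosphatase gene Ppm1d at -2.27. Heme in wild type lowered Rasa1 (-1.71) and Spred1 (-1.61) and raised Ppm1d (1.31), and Spred1 also fell in Nrf2-/- cells (-0.97 ± 0.20, limma adjusted p = 0.00790). The 19 further dual-specificity phosphatases are given beside the same shares of all genes, 12.3% and 16.3% for LPS and 8.34% and 6.35% for heme in wild type. LPS raised Dusp11 (1.86) and lowered Dusp3 (-2.02), heme in wild type raised Dusp13 (1.12) and lowered Dusp28 (-1.98) and Dusp12 (-0.55). In Nrf2-/- cells none passed by limma, with 2 at an unadjusted p under 0.05, beside 17.3% of all genes.

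**Figure D4:**
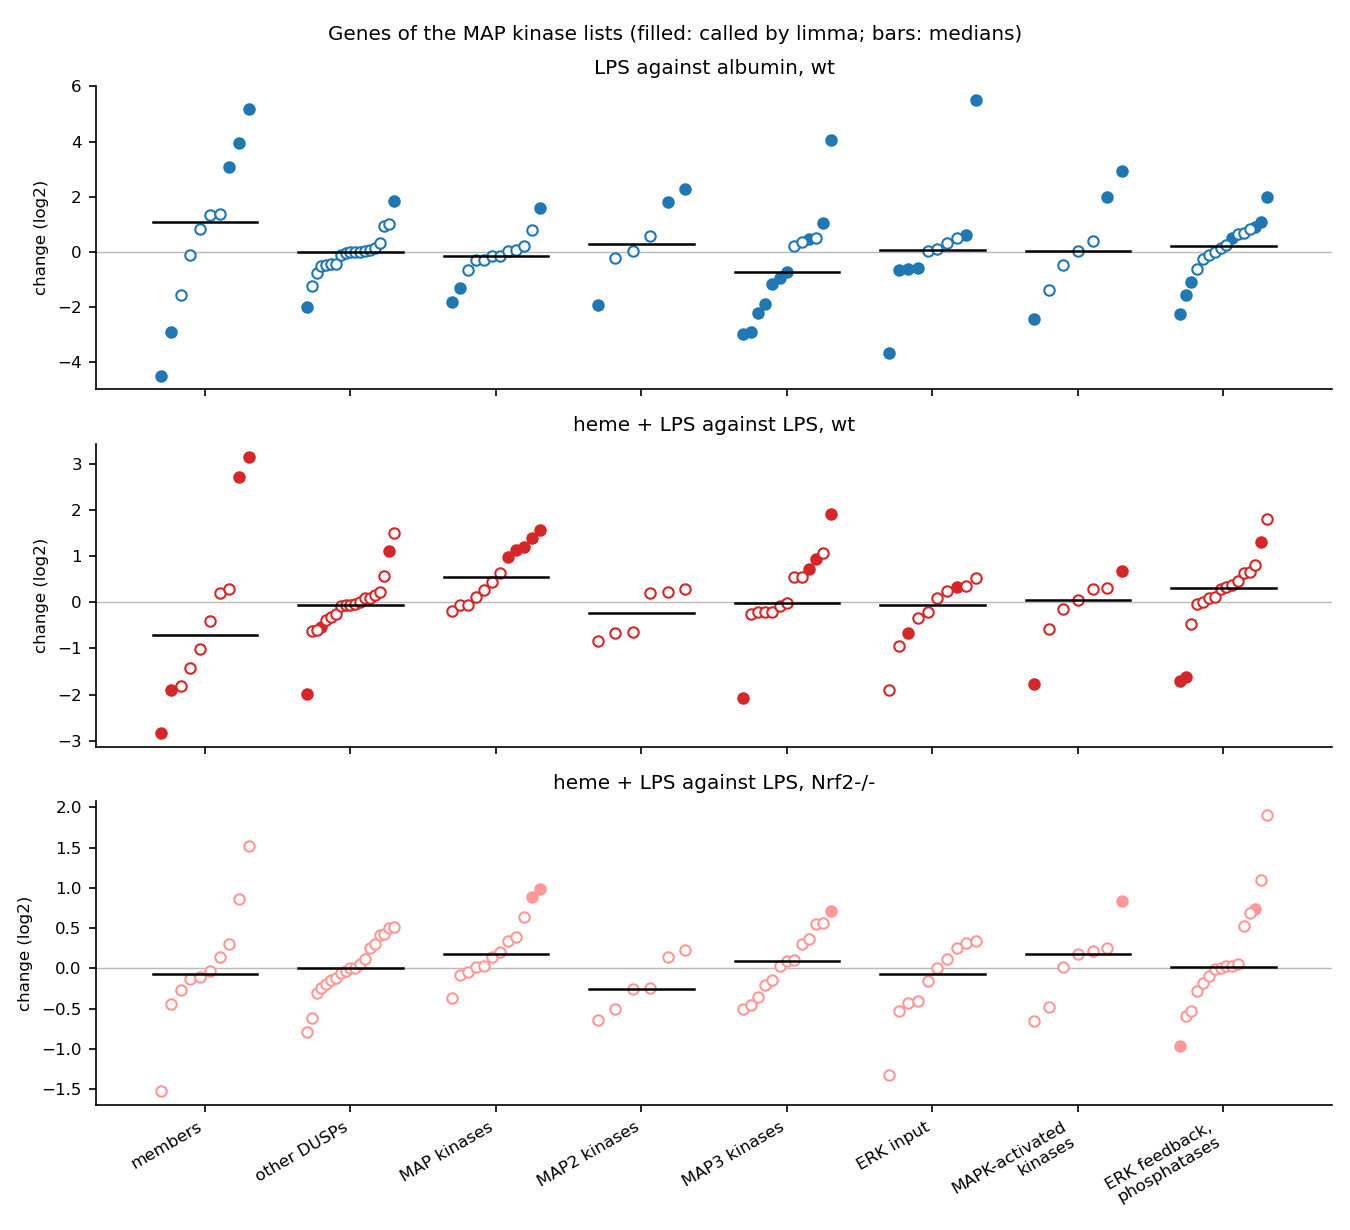
Change of each measured gene (difference of mean log2 ratios, vertical axis, a scale of its own in each panel) by list (horizontal axis) for LPS against albumin and for heme and LPS against LPS in wild type and in Nrf2-/- cells; filled points were called by limma, bars are list medians, and points within a list are in order of their change. In the wild type heme panel 5 of 12 MAP kinases are filled and all 5 lie above 0.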

How the data were processed

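The 18 two-colour Agilent arrays were deposited as log10 ratios of sample (Cy5) over untreated reference (Cy3), from Agilent Feature Extraction 10.5.1.1 per the submitters' processing notes. The log base is not stated there and was inferred from the values. No source used here gives the background correction, the dye correction or a genome build, and the files give no probe positions. Of 44397 features 11371 carried no gene symbol, 32438 were checked by gene identifier against RefSeq and 0 symbols changed. No value was missing.

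Ratios were converted to log2 and the features of each gene were averaged. Limma 3.58.1 (lmFit, eBayes; R 4.3.3) fitted the 5 groups in 1 model over all 18 arrays and 22485 genes, with 1 spread per gene and two-sided p-values adjusted over all genes (Benjamini-Hochberg, call under 0.05). The fit was tested on simulated data. "Rose" and "fell" stand for called changes. Arrays limit the precision by their number. Alternatives changed normalization, centring, the handling of zeros, array weights, the samples fitted, the features of Dusp16, a replicate block, and left out arrays.

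Array letters were taken to pair samples where every same-letter correlation of deviations from group means was over 0.1. This was met for Nrf2-/- heme and LPS with Nrf2-/- LPS (4 pairs, 0.22 to 0.59), and for the genotypes under LPS (3 pairs, 0.20 to 0.58) and under heme and LPS (3 pairs, 0.23 to 0.53), but not for wild type heme and LPS with LPS (0.012 to 0.48) or for albumin. The rule did not look at different letters. Nrf2-/- heme array b had 0.36 with LPS array c, and c had 0.32 with b, above b with b (0.23) and c with c (0.22). In wild type these were 0.36 and 0.32, above 0.012 and 0.014. Between genotypes, b with b and c with c were the higher values under both treatments. For heme against LPS, letters b and c were thus not shown to mark pairs.

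All 10 members are named. Of each further list up to 3 called genes per comparison may be named, those with the largest changes. The members, lists and tests were chosen with earlier results of these data known. Figures were made in Python 3.11.15 (pandas 2.3.3, matplotlib 3.10.9).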

Additional observations from a re-analysis of the deposited data

Results flagged for a closer look

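Dusp2 differed between genotypes in its response to heme by 2.57 log2 units (limma, the interaction), as reported above. Of 20 groups of 4 or 5 arrays, taken gene by gene, 3 held an array far from the others by Dixon's test. Its usual rate by chance, about 1 group in 20, does not apply here, because each flag involves arrays listed at exactly 0. Where all other arrays of a group are at 0, any other value is flagged. Dusp5 was at 2.29 on Nrf2-/- LPS array d while the other 3 arrays of the group were listed at 0. Dusp5 was at 0.78 on Nrf2-/- heme and LPS array d, where the others ran from -0.13 to 0. Dusp8 was listed at 0 on Nrf2-/- heme and LPS array a, where the others ran from 1.61 to 2.26.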

How the results depend on the processing

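The 17 called changes kept their direction in all 276 values under the alternatives, and 17 of these values no longer passed, for Dusp4, Dusp7 and Dusp16 as given above. Of 917 values of the 53 results that did not pass, 51 passed under an alternative and 65 changed sign, none of those past the threshold. Beside those given above, Dusp10 passed for LPS against albumin under 4 of 15 alternatives, Dusp4 for heme and LPS against albumin under 5 of 15, Dusp4 for LPS against albumin under 1, and Dusp7 for the interaction under 1. The cause of these shifts was not tested.

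The number of the 10 genes called changed by more than 1.5 times as follows. With the replicate block it was 8 in place of 5 for LPS against albumin and 7 in place of 4 for heme and LPS against albumin, comparisons whose letters did not meet the rule for pairing samples. Where the letters met that rule, the block ended the call of Dusp16 between genotypes under heme and LPS (1.33) and changed no other call of the 10 genes. For heme and LPS against albumin it was 7 after quantile normalization, 8 with array weights and 7 without the LPS-treated arrays lettered a. For Nrf2-/- heme and LPS against LPS it was 1 in place of 0 with zeros treated as missing, 1 with genes at 0 on 9 or more arrays left out, 1 with array weights and 2 without the arrays lettered a. For the interaction it was 3 in place of 1 with array weights and 2 with feature 21387 of Dusp16, and for the genotypes under heme and LPS 1 in place of 3 with only those groups fitted. Leaving out 1 array gave 0 to 2 for Nrf2-/- heme and LPS, 1 to 2 for the interaction and 1 to 3 for the genotypes under heme and LPS.

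Signs of results that did not pass changed as follows. For heme in Nrf2-/- cells quantile normalization gave 0.21 for Dusp1, 0.21 for Dusp2, -0.16 for Dusp6 and 0.31 for Dusp16. Array weights gave 0.23 for Dusp1, -0.13 for Dusp6, 0.041 for Dusp14 and 0.22 for Dusp16. Leaving out the arrays lettered a gave -0.38 for Dusp6, 0.087 for Dusp14 and 0.16 for Dusp16. Dusp16 was at 0.23 with zeros treated as missing and at 0.13 by feature 21387. For heme in wild type Dusp6 was at -0.22 with array weights and -0.34 without the arrays lettered a. For the interaction Dusp6 was at -0.49 after quantile normalization and -0.041 without the arrays lettered a. Between genotypes under LPS Dusp2 was at -0.00081 after quantile normalization, Dusp7 at -0.032 with the replicate block and Dusp1 at 0.15 without the arrays lettered a. Under heme and LPS Dusp6 was at -0.21 after quantile normalization and Dusp5 at 0.020 with array weights.

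With 1 array left out the ranges that crossed 0 were these. For heme in Nrf2-/- cells they were -0.60 to 0.30 (Dusp1), -0.63 to 0.13 (Dusp5), -0.20 to 0.93 (Dusp6), -0.048 to 0.40 (Dusp7), -0.41 to 0.17 (Dusp14) and -0.21 to 0.34 (Dusp16). For heme in wild type they were -0.17 to 0.39 (Dusp5) and -0.11 to 0.60 (Dusp6). For LPS against albumin the range of Dusp8 was -0.36 to 0.19, and for heme and LPS against albumin that of Dusp10 was -1.19 to 0.0085. For the interaction they were -0.49 to 0.64 (Dusp6), -0.17 to 1.03 (Dusp10) and -0.045 to 0.59 (Dusp14). Between genotypes under LPS they were -0.58 to 0.41 (Dusp1), -0.17 to 0.59 (Dusp5), -0.33 to 0.80 (Dusp6), -0.099 to 0.38 (Dusp7), -0.081 to 0.65 (Dusp8) and -0.44 to 0.12 (Dusp16), and under heme and LPS -0.43 to 0.13 (Dusp5). Signal over background is not part of the deposited values used here.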
